A study of Xenopus laevis with 4 samples.

Results

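The water-injected control embryos of this series give a picture of the *Xenopus laevis* transcriptome at the early gastrula stage (stage 10.5). They were chosen by their group label and make up 2 of the 4 samples of the series, and each sample holds RNA of 10 outbred embryos injected at the 1-cell stage. The remaining 2 samples received an antisense oligonucleotide against *gcn5* and were not used here. The group was read from the titles and the knockdown label, because the protocol text given for the controls is the same as that of the antisense samples. All 45098 gene models of the deposited table have a control value, and all entered the description of levels. Homeolog expression was compared for the 3181 of 7982 symbols with both an L and an S row whose summed control mean was at least 20. The table gives 1 control mean per gene, from which the reads of both libraries were recovered. They are called control X (4093025 reads) and control Y (2351039 reads), letters that carry no link to replicate 1 or 2.

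At the early gastrula stage the embryo has passed the mid-blastula transition, at which zygotic transcription begins, and still carries a large store of maternal RNA laid down in the oocyte. Nodal, Wnt, FGF and BMP signals are at work to set up the germ layers, and the dorsal blastopore lip, known as the Spemann organizer, secretes antagonists of BMP and Wnt ligands. *X. laevis* is an allotetraploid, and many of its genes are present as a homeolog on a long (L) and a short (S) version of each chromosome, derived from different ancestral species.

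Reads were concentrated on few gene models. Of 45098 models 21721 (48.2%) had a read in at least 1 control library, 11204 (24.8%) reached a mean of 10 normalized reads, and 2325 (5.16%) reached a mean of 100. A normalized read count is the number of reads on a model divided by the size factor of its library. Those 2325 models held 86.9% of the control signal, the sum of all means. The most abundant model alone took 14.1%, the 10 most abundant took 45.7%, and 14 models made up 50% of the signal, whereas 3298 were needed for 90%. Reads were found on 20643 models (45.8%) in control X and on 18306 (40.6%) in control Y, and 17228 models had reads in both. With control X thinned to the total reads of control Y it had reads on 19501 models (43.2%). This matched total reads only, since the 10 most abundant models take a larger share in control Y. A library with no read on a model can still hold up to 3 reads by counting error alone, which equals 1.61 normalized counts in control X and 4.03 in control Y. Intervals and floors of this kind cover counting error only, because reads made by PCR without molecular identifiers are not independent molecules. Levels were not corrected for transcript length, so the ranking is one of reads and not of molecules.

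**Figure D1:**
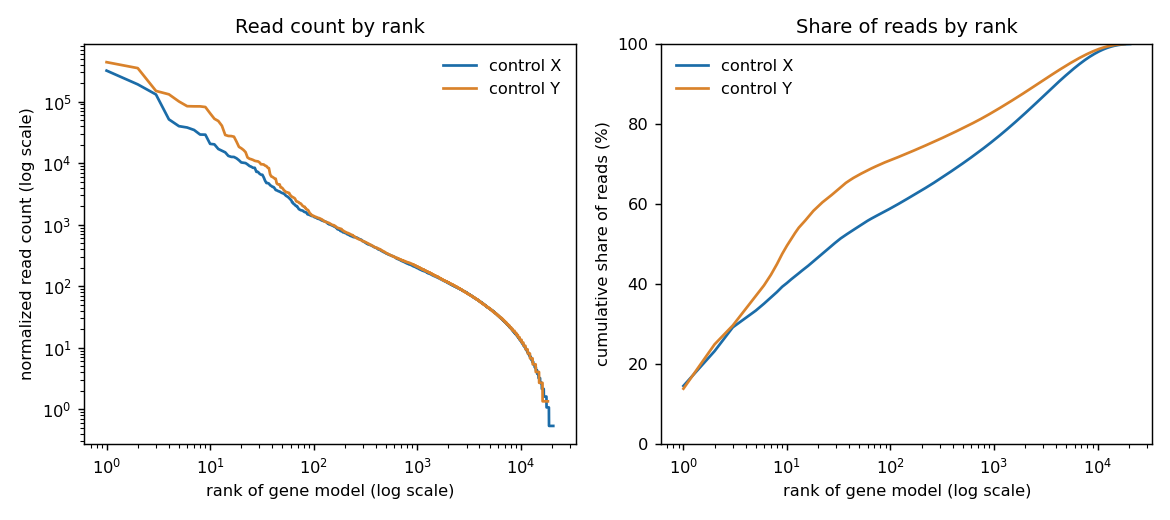
Normalized read count (left) and cumulative share of reads (right) of gene models ordered by rank in each control library, with log axes for rank and count. In the left panel the lines of control X and control Y lie over each other beyond about rank 100. Control Y carries more reads on its leading models, with 49.6% of reads on the 10 models with the largest means against 40.1% in control X. The cumulative shares stay apart at higher ranks, with 70.9% against 58.7% on the 100 models with the largest means and 83% against 75.8% on the 1000.

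Most of the leading models had no gene symbol. Of the 10 with the largest means 8 carried only an identifier, led by Xelaev18004100m with normalized counts of 319170 in control X and 438031 in control Y. Next came *nemf-like.L* with 190870 and 350507, and LOC100488074.1 with 130713 and 131474. The model *parp2.L*, named after a poly(ADP-ribose) polymerase of the DNA damage response, had 34634 and 83818. All 10 were higher in control Y, with a median log2 ratio of X to Y of −1.21, as were 27 of the leading 30. Libraries had been depleted of ribosomal RNA. Without a stated strand setting, reads of a gene and of an overlapping or antisense transcript cannot be told apart, and the RefSeq annotation of a later assembly (Xenopus_laevis_v10.1) lists the noncoding RNA gene LOC108697083 beside *parp2.L*. The source of the reads on these models was not tested. Models with a symbol numbered 17408 and held 35.5% of the signal, and 72.2% of them had a read. The 20685 models with a Xelaev identifier held 49.5% of the signal, although only 31.2% of them had a read.

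After these, genes of RNA processing were frequent among the symbols with the most reads. Of the leading 30, 7 belonged to a list of RNA-binding and decay factors, which holds 58 models beside 17408 models with a symbol. These 7 are models and not separate genes, since *srsf2* and *hnrnpab* each gave more than a single row. The list was chosen with earlier results of these data known. It does not hold *cirbp.L*, *sfpq.S*, *alyref.L* or *hnrnpa0.S*, which are named below. *scpep1.L*, a serine carboxypeptidase, had 6505 and 10922 normalized counts in control X and Y. *ap1m2.1*, a clathrin adaptor subunit, had 4658 and 9501. The histone variant gene *h2afx.L* had 5170 and 5625. The splicing factor gene *srsf2.L* had 3177 and 1865 and *srsf2.S* had 2005 and 1103. *cirbp.L*, a cold-inducible RNA-binding protein, had 2476 and 2091, and *sfpq.S*, a splicing factor rich in proline and glutamine, had 2008 and 1965. The mRNA export adaptor gene *alyref.L* had 1405 and 1974, and the hnRNP genes *hnrnpa0.S*, *hnrnpl.S* and *hnrnpab.S* had means of 1603, 1545 and 1248. Keratin *krt8.L* (1618 and 2402) and the actin-bundling gene *fscn1.S* (1747 and 2212) stood among them. Over the whole list of RNA-binding and decay factors, reads were found on 56 of 58 models and a mean of at least 10 on 52, with a median of 82.4. Among all models with a symbol 41.6% reached a mean of 10 and the median was 5.37, and these are the values against which the lists below are read. The lists are descriptive and were not tested. Of 957 names or name patterns over all lists 362 matched no row, some of them older names of a listed gene, and all counts cover the matched models only.

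Markers of the Spemann organizer were detected with few exceptions. Reads were found on 32 of 33 models, a mean of at least 10 on 21, and the median was 19. The homeobox gene *not*, a marker of the organizer and later of the notochord, had 257 and 381 normalized counts in control X and Y for *not.S* and 208 and 238 for *not.L*. *gsc.S*, the organizer homeobox gene goosecoid, had 85.2 and 80.7, and *gsc.L* had 66.5 and 82. The forkhead gene *foxa4.L* had 97.6 and 120. For each of these models the libraries differed by less than 2-fold, while the median of the whole list was 22.5 in control X and 14.8 in control Y. Among secreted antagonists, *frzb.S*, a Wnt inhibitor, had 86.3 and 59.2, and *cer1.S*, which binds Nodal, BMP and Wnt ligands, had 61.6 and 28.2. The BMP antagonist *nog.L* had 19.8 and 22.9 and follistatin was near the floor, with means of 1.88 for *fst.S* and 1.48 for *fst.L*. *shh.L* had no read. No row was found under the names *chrd* and *otx2*, so that these organizer genes were not analysed here.

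Mesodermal markers had reads on 47 of 50 models, a mean of at least 10 on 33 and a median of 26.8. The T-box gene *t*, known as brachyury and expressed around the blastopore, had 493 and 401 for *t.S* and 127 and 124 for *t.L*. The T-box gene *eomes.S* had 114 and 87.4. *wnt11b.L*, which encodes a Wnt ligand active in gastrulation movements, had 209 and 176. The small GTPase gene *rhob* had 537 and 896 for *rhob.L* and 559 and 862 for *rhob.S*. Of the myogenic regulators *myod1.S* had 87.4 and 17.5 and *myod1.L* had 42.9 and 24.2. Other members of the list ranged widely. *myf5.S* had a mean of 4.7, *msgn1.L* of 3.22 and *mespa.L* of 1.34. The forkhead gene *foxc1.S* had 222 and 125, and the protocadherin gene *pcdh8.2.L* had 76.7 and 72.6.

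Endodermal markers included models with high counts. The list had reads on 25 of 32 models and a median of 26, and 12 models had a mean of at least 100. *sox17a.S*, an HMG-box gene that directs endoderm formation, had 1168 and 1108 normalized counts, *sox17a.L* had 708 and 737, and *sox17b.1.S* had 628 and 601. The homeobox gene *mixer.L* had 620 and 678. The GATA factors *gata6.S* (167 and 208) and *gata4.S* (198 and 172) were also present. The nodal ligand genes, which lie upstream of this program, were close to 0. *nodal2.L* had a mean of 4.02, *nodal1.L* of 1.48 and *nodal6.L* of 2.15, and *nodal.L* and *nodal.S* had no read.

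Ventral and BMP-responsive genes had reads on 33 of 34 models and a median of 40.2. Feedback inhibitors of BMP signalling had the most reads in this list. *bambi.L*, a pseudoreceptor, had 322 and 506, and the inhibitory Smad gene *smad6.L* had 229 and 421. *szl.L*, the secreted regulator sizzled, had 81.5 and 152, and the homeobox gene *ventx1.2.L* had 77.7 and 109. The ligand gene *bmp4.L* had 61.6 and 61.9.

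In the ectoderm, neural markers had reads on 29 of 31 models, with a median of 17.6. *sox11.S* had 451 and 643, *zic1.L* had 420 and 319, *zic1.S* had 313 and 368, and *otx1.L* had 162 and 192. The SoxB1 gene *sox2.1* had 112 and 161. The eye field gene *rax* had no read on either homeolog. Epidermal and simple-epithelial genes were split. Of 52 models 28 had a read, and control X had a median of 0.804 and control Y one of 0. The simple-epithelial keratin *krt8.L* had 1618 and 2402, *krt5.7.S* had 1466 and 1291 and *krt.S* had 1251 and 1092, while 24 models had no read, among them *krt16.L*, *krt17.L* and *tp63.L*, a basal epidermal regulator. Whole embryos were pooled, so fewer cells of a type and less RNA per cell cannot be told apart in any of these values.

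**Figure D2:**
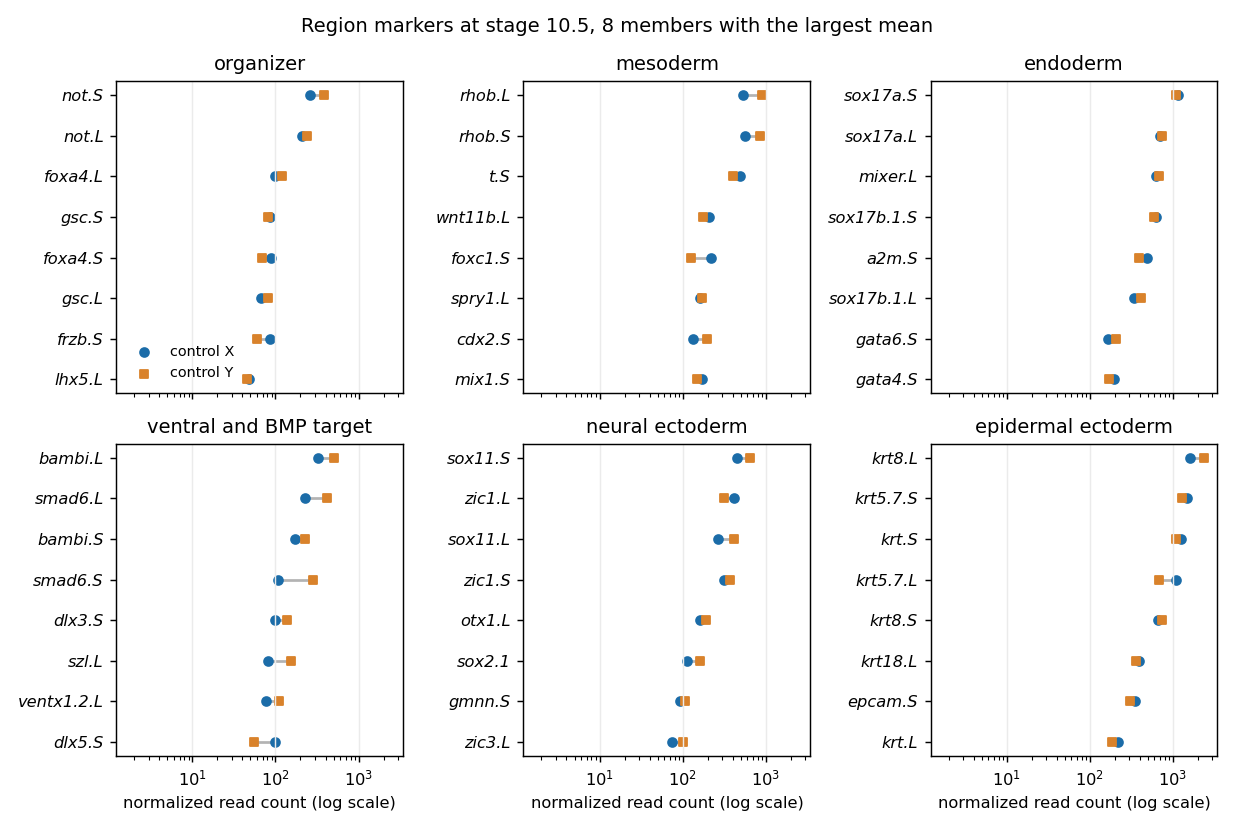
Normalized read counts (log axis) of the 8 models with the largest mean in each of 6 lists of region markers, with control X as circles and control Y as squares joined by a line. The keratins *krt8.L* (1618 and 2402) and *krt5.7.S* (1466 and 1291) lie farthest to the right, and for most models both libraries lie close together.

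Transcripts known from the oocyte and egg were detected with few exceptions among the names with a row, while 20 of 46 names of the list matched none. Reads were found on 38 of 41 models, a mean of at least 10 on 31, and the median was 44.7. *mos.L*, the kinase that holds the egg in meiotic arrest, had 796 and 1213, and *plk1.S*, a mitotic kinase, had 735 and 810. The cyclin gene *ccne1.S* had 565 and 740, and the phosphatase gene *cdc25a.L* had 330 and 367. *plk1.S* and *ccne1.S* are also in the cell cycle list, and the values of this list do not tell maternal from zygotic RNA. Low members included *btg4.L* and *zar1.L*, with means of 4.97 and 4.7, while *btg4.S* and *zar1.S* had means of 16.4 and 37.3. Germ plasm RNAs, which mark future germ cells at the vegetal pole, had reads on 16 of 17 models. *nanos1.L* had 231 and 416, *grip2.L* had 122 and 122 and *dazl.L* had 35.9 and 44.4. Of genes activated at the mid-blastula transition or in the early response class, *ier2.1* had 520 and 800 and *mixer.L* had values given above, while *jun.L* (mean 0.672), *fos.L* (3.89) and *atf3.L* (0.804) were near the floor.

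Markers of differentiated tissues were absent or nearly so. Lists for muscle and heart, neurons, blood and vessels, and gut and liver held 94 models besides *cdx2*, of which 70 had no read and 2 reached a mean of 10. These were *ckm.L*, muscle creatine kinase, with 16.6 and 22.9, and *nefl.L*, a neurofilament gene, with 16.6 and 24.2. No read was found on *gata1.L*, *hba1.L*, *myog.L*, *neurod1.L* or *apoa1.L*. The homeobox gene *cdx2*, listed for gut and also for mesoderm, had 135 and 195 for *cdx2.S* and 150 and 113 for *cdx2.L*.

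Signalling pathways differed by component. In the Nodal and TGF-beta list reads were found on 35 of 51 models and a mean of at least 10 on 17. Receptors and transducers were detected, with *acvr2b.S*, an activin receptor, at 184 and 241, *smad2.L* at 114 and 155, the DNA-binding partner *foxh1.L* at 209 and 303 and the co-receptor *tdgf1.3.L* at 205 and 274, and so was the ligand gene *gdf3.1* (75.6 and 74). The ligand genes *inhba.L* and *tgfb1.L* had no read. In the BMP list the receptor and transducer genes were likewise detected, with *acvr1.S* at 323 and 437 and *smad1.S* at 272 and 198, and so were the ligand genes *bmp4* (given above) and *bmp2*, with 24.7 and 51.1 on *bmp2.L* and 32.2 and 41.7 on *bmp2.S*. The ligand genes *bmp5.L* and *bmp6.L* had no read. In the Wnt list 70 of 94 models had a read. The receptor *fzd8.S* had 723 and 951, the co-receptor *lrp6.S* had 322 and 247, and the repressor *tcf7l1.S* had 224 and 245. The ligand gene *wnt8a.S* had 63.3 and 33.6, while *wnt1.S*, *wnt2.L* and *wnt3a.L* had no read. In the FGF list, which had 47 of 66 models with a read, *fgf8.L* had 49.9 and 61.9 and the receptor *fgfr4.S* had 146 and 192. The feedback inhibitors *dusp5.L* (178 and 276), *dusp6.S* (123 and 134) and *spry1.L* (164 and 172) were also detected. Ligand genes *fgf1.L*, *fgf2.L* and *fgf9.L* had no read. Notch components were detected on 28 of 30 models, with a median of 31.6, led by the glycosyltransferase *lfng.L* (341 and 570) and the receptor *notch1.S* (456 and 368). For retinoic acid, the degrading enzyme *cyp26a1.L* had 389 and 373 and the retinol dehydrogenase *rdh10.S* had 354 and 789.

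The transcription machinery was examined because the series concerns an acetyltransferase that acts with it. The TATA-binding protein gene had few reads, with 4.82 and 10.8 for *tbp.S* and 2.14 and 6.72 for *tbp.L*. Its oocyte paralog *tbpl2.L* had 1.07 and 0, which is 2 reads in control X. No row was found under the name *tbpl1*. Among TFIID and general factors *gtf2e1.L* had 360 and 356 and *taf5.1* had 217 and 354, and 22 of 33 models of the list had a mean of at least 10. Genes of the SAGA and ATAC co-activators had reads on 20 of 21 models, all 20 with a mean of at least 10. The acetyltransferase gene *kat2a*, which encodes Gcn5, had 50.4 and 104 for *kat2a.L* and 27.9 and 45.7 for *kat2a.S*. *kat2b.S* had no read. The large subunit of RNA polymerase II had 732 and 531 on *polr2a.1* and 371 and 247 on *polr2a.L*.

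Groups used by every cell were broadly detected. Cell cycle genes had reads on 87 of 90 models and a median of 52.5, led by *ccna2.L* (964 and 1235) and the licensing gene *cdt1.1* (1010 and 711), while the cell cycle inhibitor *cdkn1a* had no read on either homeolog. Ribosomal proteins had reads on 57 of 61 models, a mean of at least 10 on 49 and a median of 24.3, with *rpl3.L* at 308 and 221. Translation factors had reads on 63 of 67 models with a median of 43.9, oxidative phosphorylation on 91 of 98 with a median of 18.3, and chaperones on 57 of 69 with a median of 24.6. *hspa8.S*, the constitutive heat shock protein 70, had 1267 and 1100, while *hspb1.L* had no read. In the list of adhesion and gastrulation movement the claudin *cldn6.1.L* had 1129 and 966, the maternal cadherin *cdh3.L* had 628 and 511, and fibronectin *fn1.S* had 480 and 309. Among chromatin modifiers, with reads on 82 of 84 models, *hdac1.L* had 314 and 250 and *dnmt1.L* had 226 and 231. *hdac2.L* had a mean of 2.01. Lists of mitochondrially encoded genes and of noncoding RNAs matched no row by name.

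Between the control libraries, levels of well-covered models differed by a modest amount. Over the 2325 models with a mean of at least 100 the log2 ratio of X to Y had a median of −0.03 and an SD of 0.55, and Pearson's r of the log2 levels was 0.92, a description across genes that are not independent. More than 2-fold differences were seen for 144 models (6.19%), 98 of them higher in control Y and 46 higher in control X. The widest gaps among symbols toward control Y were those of *idh2.S*, a mitochondrial isocitrate dehydrogenase, with 27.3 against 202, and of the ribosomal protein gene *rps29.L*, with 140 against 510. Toward control X they were those of *impdh2.L*, a guanine nucleotide synthesis enzyme, with 203 against 33.6, of *gpnmb.L* with 240 against 45.7, of *tnpo2-like.1* with 192 against 45.7 and of the nucleosome-binding gene *hmgn2.L* with 577 against 140. The widest gaps of all were on models without a symbol, Xelaev18002345m with 5.9 against 204 and Xetrov90029512m.S with 402 against 18.8. With 2 libraries these differences were not tested.

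**Figure D3:**
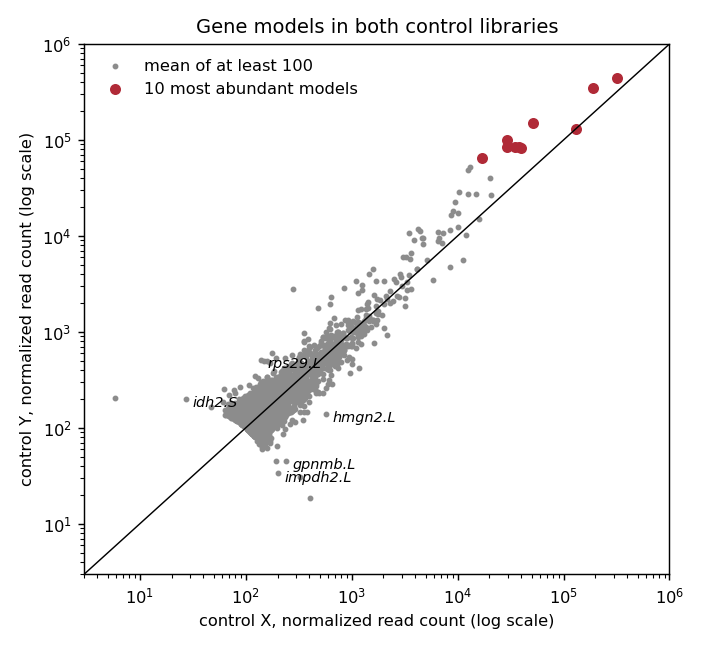
Normalized read count in control X and control Y (both log axes) of the 2325 models with a mean of at least 100, with the line of equal counts. The 10 most abundant models (red) lie on or above the line, LOC100488074.1 (130713 and 131474) closest to it, and the named models *idh2.S*, *rps29.L*, *impdh2.L*, *gpnmb.L* and *hmgn2.L* lie away from it.

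Symbols were spread unevenly over the subgenomes. Models with a symbol and the suffix L numbered 9442, of which 73.7% had a read, and those with the suffix S numbered 7248, of which 70.3% had a read. Summed means came to 665163 for L and 245763 for S, and to 335248 for L without *nemf-like.L* and *parp2.L*, an exclusion chosen after seeing the data. Over all names, 5416 had only an L row and 1710 only an S row, besides the 7982 with both. Another kind of row, whose name ends in a 1 in place of L or S, was found beside a lone L row for 494 names and beside a lone S row for 324, and beside a full pair for 0. Whether such a row is the missing homeolog is not stated in the sources used here, and these rows entered no comparison of L with S.

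Homeologs differed in reads in many pairs, with L the higher one somewhat more often. Of the 7982 pairs 2019 had no control read and 2782 had a summed mean above 0 but below 20. In the 3181 pairs tested, limma with an abundance trend and Benjamini-Hochberg adjustment called L higher in 947 (29.8%) and S higher in 636 (20%) at an adjusted p under 0.05, so that 59.8% of the 1583 calls went to L. The median log2 ratio of L to S was 0.24 (0.24 in control X and 0.22 in control Y), and L was the higher homeolog in 56.3% of pairs. A total of 29% of pairs were over 4-fold apart, 571 toward L and 352 toward S, and 223 and 128 were over 16-fold apart. The higher homeolog was the same in both libraries in 2661 pairs (83.7%). All 1583 called pairs were among them, which the test fixes in advance. With 2 libraries and this moderation, ratios of opposite sign cannot reach the threshold. Pearson's r of the log2 ratios was 0.91 over 3181 pairs, whose ratios share the embryos of a library. Reads were compared per model and not per length, so a pair with models of unequal length can differ for that reason. Near-identical stretches of homeologs can also share or lose reads in mapping.

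**Figure D4:**
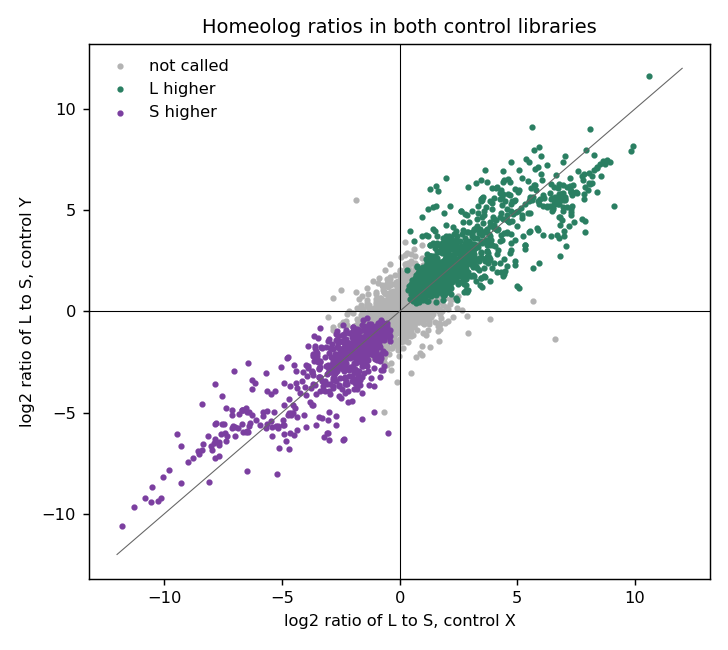
Log2 ratio of L to S normalized counts in control X (horizontal) and control Y (vertical) for the 3181 pairs tested, with pairs called L higher (947) in green, called S higher (636) in purple and pairs not called (1598) in grey. All called pairs lie in the quadrants where both libraries have the same sign, which a call here requires, and the points stretch along the diagonal.

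The distance between homeologs was wider in pairs with few reads. In the 1130 pairs with a summed mean of 20 to 50 the median log2 ratio was 0.35 and 37.3% were over 4-fold apart. These values were 0.29 and 28.9% from 50 to 100, 0.14 and 22.3% from 100 to 500, and 0.00 and 14.7% in the 163 pairs with a summed mean of 500 and over. In that last group 55 pairs were called L higher and 45 S higher. Just outside the minimum lay *ddr1* (means of 19.34 for L and 0.5361 for S), LOC101732903 (11.29 and 8.591) and *amdhd2*, which had reads on L only. Just inside lay *arl8b* (3.621 and 16.38), *ppap2b* (4.43 and 15.58) and *trmt2a* (0.268 and 19.86). The spread from counting error is wider in pairs with few reads, and its part in the distances was not tested.

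In 142 pairs (4.46%) 1 homeolog had no read in either library, S in 87 and L in 55. All 142 were called, which the selection of pairs made likely. Such a pair reaches the minimum on the reads of the other homeolog alone. Its log2 ratio therefore tends to be large and on the same side in both libraries. Fold differences of such pairs are given against 3 reads over both libraries, with the reads of the higher homeolog taken as counted. Values written as at least a fold are therefore not exact 95% lower limits. Those limits were lower for each such pair, such as 254 for *hnrnpul1* and 168 for *serp2*. The pair *a2m*, a protease inhibitor of the alpha-2-macroglobulin family listed among the endodermal markers, had 486 and 394 normalized counts on S and none on L, at least 400-fold higher on S, and its exact 95% lower limit, which includes the counting error of S, was 325. The ribosome biogenesis gene *rrp12* had 328 and 448 on S (at least 315-fold), the splicing factor gene *sf1* had 301 and 395 (at least 285-fold), *hnrnpul1* had 394 and 272 (at least 312-fold), *mrpl44*, a mitochondrial ribosomal protein, had 166 and 241 (at least 163-fold) and *tyw1*, a tRNA-modifying enzyme, had 137 and 117 (at least 114-fold). On the L side, *serp2* had 256 and 194 on L and none on S, at least 207-fold higher on L. The mitochondrial channel gene *vdac3* had 129 and 110 (at least 108-fold), the exosome nuclease gene *exosc10* had 121 and 118 (at least 104-fold), the GTPase gene *rhoc* had 114 and 104 (at least 96.3-fold), and the receptor kinase gene *tyro3* (97 and 105) and the Arp2/3 subunit gene *arpc5l* (82 and 143) were each at least 86.3-fold higher on L. The remaining pairs of the leading 12 on either side without a read on the lower homeolog were named by identifier only, with Xetrov90030935m at least 850-fold higher on S. With the homeologs without a read at the floor the median log2 ratio over all 3181 pairs was 0.24, which these pairs cannot move because each keeps its side.

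Other strongly unequal pairs had a few reads on the weaker homeolog. *parp2* had 34634 and 83818 on L against 22.5 and 25.6 on S, a ratio of reads of 2081 (95% exact interval of 1620 to 2721). Such exact intervals pool the reads of both libraries and leave out the difference between libraries. The log2 ratio of *parp2* was 10.57 in control X and 11.64 in control Y (limma 95% interval 10.43 to 11.78). Reads of *parp2.L* cannot be told apart from those of an overlapping or antisense transcript, as stated above. Their source was not tested, so this ratio is one of models and may not be one of *parp2* homeologs. The DNA repair gene *tonsl* had 219 and 340 on L and 1 read on S, a ratio of 661 (118 to 26147), and *cth*, an enzyme of cysteine synthesis, had 191 and 167 and 1 read, a ratio of 481 (85.9 to 19037). The phosphatase gene *cdc25a* had 330 and 367 on L against 6.43 and 0 on S, a ratio of 74 (42.2 to 144).

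Symbols of homeologs without a read were looked up in a later annotation. Among the 46 pairs with a gene symbol and no read on L, the L symbol was found in RefSeq Xenopus_laevis_v10.1 for 19 (41.3%) and the S symbol for 39 (84.8%). Among the 74 with no read on S, the S symbol was found for 30 (40.5%) and the L symbol for 62 (83.8%). In 1450 pairs not called the shares were 80.8% for L and 79.7% for S. In called pairs over 4-fold apart with reads on both homeologs, the symbol of the weaker one was found for 72.6% for S in 420 pairs toward L and 73.7% for L in 247 pairs toward S. Of the L homeologs without a read named above, the symbols of *a2m*, *rrp12*, *sf1*, *mrpl44* and *tyw1* were not found and that of *hnrnpul1* was. On S, those of *serp2*, *vdac3* and *exosc10* were not found, and those of *rhoc*, *tyro3* and *arpc5l* were. Weaker homeologs with reads were found for *parp2*, *cth* and *cdc25a* and not for *tonsl*. In the called list pairs given below, the weaker symbol was not found for *cer1*, *foxh1*, *dlc* and *taf4b* and was for the others. Symbols were matched by name or synonym, and a name that was changed between annotations counts as not found. These shares were not tested.

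At the other end, 297 pairs (9.34%) had a 95% interval of the ratio that lay wholly within 2-fold. *rhob* had a log2 ratio of −0.00 (95% interval −0.44 to 0.44) and the protease gene *ctsb*, with 1039 and 1010 on L and 986 and 1143 on S, one of −0.05 (−0.49 to 0.39). *cyp26a1* had −0.06 (−0.52 to 0.41), and the Rieske subunit gene *uqcrfs1* had −0.06 (−0.60 to 0.47).

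Homeologs of developmental regulators were called in both directions. In the organizer list 1 of 10 pairs was called L higher and 2 S higher, with a median log2 ratio of −0.33, against 29.8% and 20% of all pairs. *cer1* was called S higher (−2.02 ± 0.40 SE, adjusted p = 0.0047). *gsc* (−0.17, 95% interval −0.85 to 0.52) and *not* (−0.49, −1.01 to 0.03) were not called. In the mesoderm list 4 of 16 pairs were called in each direction. Brachyury *t* was called S higher with −1.83 ± 0.21 (adjusted p = 0.000418), as was *eomes* with −1.97 ± 0.30 (adjusted p = 0.00142), and *cdx1* had 75.1 and 47.1 on S and no read on L (at least 58.3-fold). The forkhead gene *foxc2* and the ligand *fgf8* were called L higher, with 3.03 ± 0.30 and 2.22 ± 0.40. In the endoderm list 3 of 9 pairs were called in each direction. *mixer* was called L higher (1.92 ± 0.20, adjusted p = 0.000282) and *sox17a* S higher (−0.66 ± 0.18, adjusted p = 0.0211), and *sox7* had 27.9 and 33.6 on L and no read on S (at least 25.7-fold).

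Of 10 epidermal pairs 6 were called S higher and 2 L higher, with a median log2 ratio of −1.04, beside 20% S higher, 29.8% L higher and a median of 0.24 over all pairs. Counts of this size per list are descriptions, and no list was tested. Keratins stood on both sides, with *krt* at −2.52 ± 0.18 and *krt8* at 1.49 ± 0.20. The cadherin gene *cdh1* had 27.9 and 18.8 on S and no read on L. Of 14 ventral and BMP-responsive pairs 6 were called L higher and 2 S higher, among them *bambi* (1.03), *szl* (0.96), *smad6* (0.83) and *bmp4* (1.18 ± 0.35, adjusted p = 0.0253) toward L and *dlx3* (−3.34) toward S. In the neural list 4 of 9 were called L higher, with *otx1* at 3.53 ± 0.28, and 2 S higher. *zic1* was not called (0.11, 95% interval −0.43 to 0.65).

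Components of 1 pathway could have their reads on different subgenomes. In the Nodal and TGF-beta list 2 of 8 pairs were called L higher, 2 S higher and 4 were not called. The receptor pair *acvr2b* was called S higher (−5.05 ± 0.52, adjusted p = 0.00026). The transducer *smad2* (4.10 ± 0.37, adjusted p = 0.000147) and its partner *foxh1* (5.17 ± 0.40) were called L higher. Those not called included the receptor pair *acvr1b* (−0.22) and the co-receptor pair *tdgf1.3* (0.38). In the Wnt list 4 of 18 pairs were called L higher and 5 S higher, with the receptors *fzd5* (4.55) toward L and *fzd8* (−1.08) toward S, and the destruction complex genes *axin1* (−2.23) and *gsk3b* (−2.42) toward S. In the FGF list 5 of 16 were called L higher and 2 S higher, among them *dusp5* (3.22) and *spry1* (2.54) toward L. In the Notch list 4 of 11 pairs (36.4%) were called L higher and 0 S higher, beside 29.8% and 20% of all pairs. The 4 pairs were the ligand *dlc* (53.6 and 35 on L and 1 read on S), the targets *hes1* (2.45) and *hey1* (2.79) and *lfng* (1.79).

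Pairs of the transcription machinery were also called in both directions. All 6 pairs of the SAGA and ATAC list were called, 3 in each direction. Over all pairs 29.8% were called L higher and 20% S higher, and these small lists were not tested against that. The spliceosome and SAGA subunit gene *sf3b3* had 661 and 605 on L against 44.5 and 52.4 on S (3.70 ± 0.21, adjusted p = 2.4e-05). The deubiquitinase gene *usp22* (1.26 ± 0.31) and *kat2a* (1.01 ± 0.34, adjusted p = 0.0411) were also called L higher. *dr1* had 38.6 and 49.8 on L against 307 and 343 on S (−2.88 ± 0.23), and *eny2* (−1.81 ± 0.44) and *taf5l* (−1.67 ± 0.43) were called S higher too. In the TFIID list 1 of 6 pairs was called L higher and 3 S higher. The pair *taf5l* stands in both lists and is counted toward S in each. *gtf2b*, which encodes TFIIB, had 28.9 and 36.3 on L and no read on S (at least 27-fold), and *taf4b* had 22.5 and 55.1 on S and 1 read on L, a ratio of 83 (14.5 to 3317).

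Among the larger groups, 13 of 30 cell cycle pairs were called L higher and 7 S higher, with a median log2 ratio of 0.63. The shares of 43.3% and 23.3% stand beside 29.8% and 20% of all pairs, whose median was 0.24. *mcm5* (4.21 ± 0.29) of the replicative helicase and *cdc25a* lay toward L, and the spindle checkpoint gene *mad2l1* (−4.16 ± 0.45) toward S. Of 22 ribosomal protein pairs 4 were called L higher and 3 S higher, and 1 was over 4-fold apart, *rps29* (4.02 ± 0.25). Of 22 translation factor pairs 5 were called L higher and 4 S higher, with the cap-binding gene *eif4e3* at −3.63 ± 0.21 and *eif5a* at 3.80 ± 0.36. In the chaperone list 5 of 22 were called L higher and 7 S higher, in oxidative phosphorylation 4 and 6 of 27, and among chromatin modifiers 4 and 3 of 19. The Polycomb subunits *ezh2* (2.70 ± 0.33) and *eed* (−3.03 ± 0.36) were called in opposite directions.

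**Figure D5:**
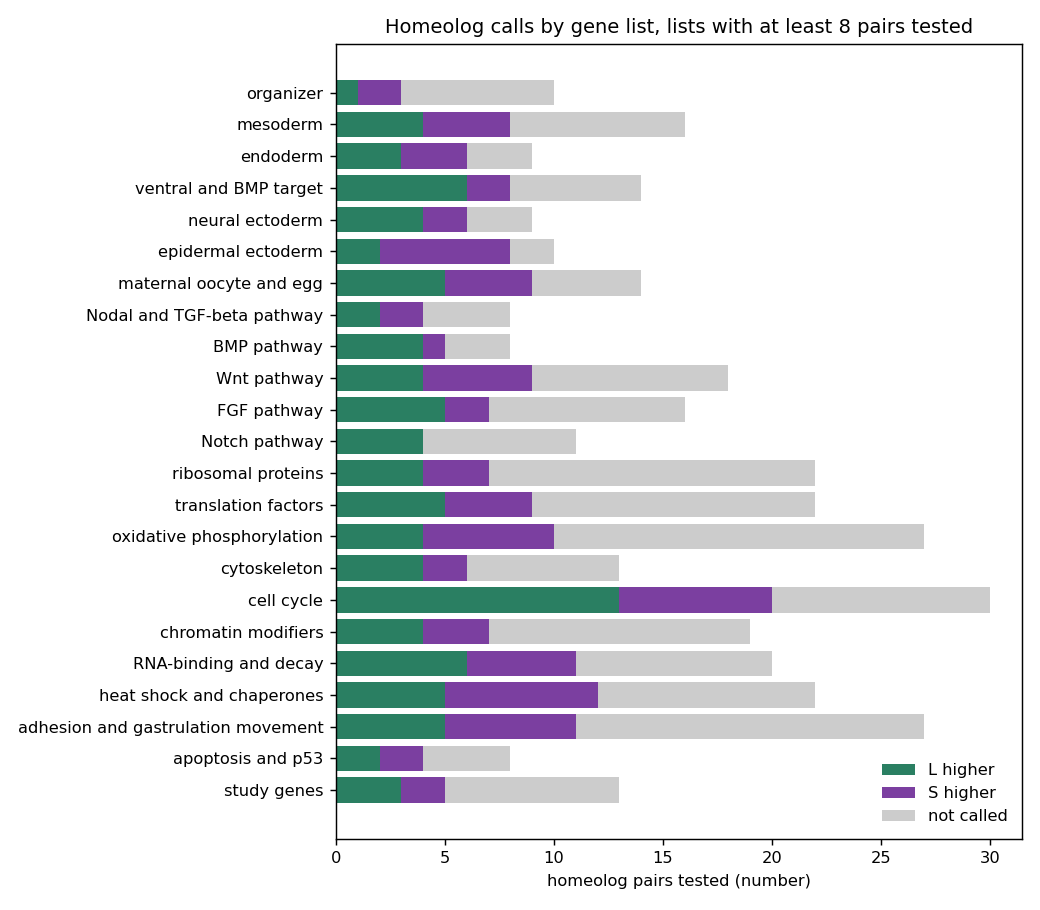
Number of homeolog pairs tested per gene list (horizontal bars, lists with at least 8 pairs), split into pairs called L higher, called S higher and not called. The cell cycle list has the most pairs (30, with 13 and 7 called).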

How the data were processed

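RNA of 4 samples was sequenced, of which the 2 water-injected controls were used. Per the labels and the paper, ribosomal RNA was depleted, libraries were primed with random hexamers, and the authors aligned reads of 75 nucleotides (single-end) to the JGI 9.1 genome in STAR, with up to 1 mismatch. For the counter, the annotation, the strand setting and the versions of tools the sources used here give nothing. The authors' deposited DESeq table holds a mean signal per group, in which read counts were divided by size factors and averaged over the samples of a group. Its mean over all samples, antisense mean, fold change, p-value and adjusted p-value columns were not used.

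Whole reads of 2 libraries explained each of 21721 non-zero control means in exactly 1 way (relative tolerance 3e-14), with size factors of 1.87 (control X) and 0.744 (control Y). The deposited values are means, and no negative binomial model was fitted to them or to the recovered reads. Log2 ratios of L to S with a pseudocount of 0.5 reads were tested two-sided with limma 3.58.1 in R 4.3.3 (intercept only, n = 2, moderation with a trend on reads) and Benjamini-Hochberg adjustment over all 3181 pairs. Simulated pairs of this comparison gave 0 calls among 2981 equal pairs, 10 of 100 at a log2 ratio of 1 and 87 of 100 at 2. Far fewer pairs were unequal there than the 1583 called in the data, so the adjusted threshold was stricter in the simulation. Its spread between libraries (dispersion of 0.0257) came from well-covered pairs only. These rates of calls therefore do not carry over to the real pairs. Single libraries were not shown to be separate batches of embryos, so a p-value here reflects only how these 2 samples vary, and that variation may be technical.

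Named genes are the 10 largest means and 20 largest with a symbol, genes the study follows, in each list the 8 members of largest mean and any below 10, the 12 largest ratios each way among called pairs with a summed mean of at least 100, pairs of list members, pairs nearest the minimum and the models that differ most between the libraries. *ctsb* was chosen after its values were seen, and some genes that the rule takes are not reported here. Members, lists and rules were chosen with earlier results of these data known. RefSeq gene names (Xenopus_laevis_v10.1) were used for names and neighbours only. Alternatives were other minimums, pseudocounts, thresholds and tests, and each library alone. Other steps used scipy 1.17.1, pandas 2.3.3, numpy 2.4.6 and Python 3.11.15.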

Additional observations from a re-analysis of the deposited data

How the results depend on the processing

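Control X alone had reads on 45.8% of models and control Y alone on 40.6%. A mean of at least 1 was reached by 40.7%, a mean of at least 10 by 24.8%, and at least 2 reads in each library by 34.4%. The share of the 10 most abundant models ranged from 40.3% (control X alone) to 49.6% (control Y alone). Calls toward L and S came to 621 and 440 with a minimum of 50, to 359 and 275 with a minimum of 100, where fewer pairs were tested, and to 662 and 423 at a false discovery rate of 0.01. With no minimum limma called 0 and 0 of 5963 pairs, with 1348 toward L and 920 toward S at an unadjusted p under 0.05 and a smallest adjusted p of 0.0673. The cause of that loss was not tested. Limma-voom gave 1116 and 802 in the 3181 pairs, and an exact binomial test past the threshold in both libraries gave 1000 and 710. L calls outnumbered S calls in every setting other than no minimum. The median log2 ratio was 0.28 with no minimum, 0.26 with a minimum of 10, 0.19 with 50, 0.13 with 100 and 0.22 in pairs with reads on both homeologs, a choice made after seeing the data, and ranged from 0.22 to 0.24 in single libraries. The share over 4-fold apart was 31.4%, 32%, 24.4%, 21.3% and 25.7% in the same order, and 27.7% to 31% in single libraries. List medians differed by over 1.5-fold between the libraries for 2 of the 31 lists with a median of at least 1 in both, organizer (22.5 and 14.8) and adhesion and gastrulation movement (24.7 and 16.1), and the epidermal median was 0.804 and 0. The planned correction for transcript length was not run, since no transcript lengths were at hand. No paired analysis was possible because the group mean carries no replicate number and 1 group was used.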

Other observations

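In 3 pairs the log2 ratios of L to S of the control libraries had opposite signs and lay more than 16-fold apart. The carbonyl reductase pair *cbr1* had 25.7 and 5.38 normalized counts on L in control X and Y, against 0 and 14.8 on S. The ribosomal protein pair *rps16* had 6.97 and 29.6 on L against 25.7 and 0 on S. The pair LOC101731814 had 33.8 and 4.03 on L against 2.14 and 5.38 on S. None of the 3 pairs was called by limma (adjusted p of 0.212, 0.338 and 0.174). Limma-voom called *cbr1* and LOC101731814 (adjusted p of 0.0469 and 0.00387) and not *rps16* (0.876). The pairs *cbr1* and LOC101731814 were chosen after their values were seen.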
